A study of Homo sapiens with 6 samples.

Results

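Parental SH-SY5Y cells and their TAE684-resistant derivative SY5Y-TR1 were compared here for 47 genes that build, space and crosslink the extracellular matrix, out of 19752 genes measured. These genes encode matrix glycoproteins, proteoglycans, and the lysyl oxidases and lysyl hydroxylases that modify matrix proteins. They were chosen by name with earlier results of these data known, so the shares of all genes given beside them are not an independent test. Collagens, integrins, laminins and matrix-degrading metalloproteinases are not among them. All 47 had a probe set that the array's annotation assigned to that gene alone. In SY5Y-TR1, 18 of them (38.3%) were called higher, beside 5.36% of all genes, and 9 (19.1%) were called lower, beside 5.99% of all genes. The other 20 were not called. None of the 8 lysine-modifying enzymes was lower, and 6 of them were higher, LOXL1 among them. Fibulin-5, thrombospondin-1, glypican-1 and nidogen-2 also rose, whereas decorin, lumican, glypican-3 and matrilin-2 fell.

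SH-SY5Y is a human neuroblastoma line with the ALK F1174L mutation, and SY5Y-TR1 is a subclone expanded from it under rising doses of TAE684, an ALK inhibitor. Both lines therefore carry ALK F1174L. SY5Y-TR1 cells were kept in medium with 1 μM TAE684 and SH-SY5Y cells in medium alone, and total RNA was hybridized to Affymetrix U133 Plus 2.0 arrays, 3 in each line. The labels call the 3 arrays biological replicates, but separate cultures were not described, so the p-values measure the spread between these arrays, which may be technical. Resistance, the choice of a single subclone and the drug in the medium cannot be told apart in this design.

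Signals are given on the log2 scale after robust multi-array averaging (RMA), so that 1 unit is a 2-fold difference. A gene was called when its limma p-value, adjusted by Benjamini-Hochberg over all 19752 genes, was under 0.05 and its signal differed at least 2-fold. By this rule 1059 of all genes were called higher in SY5Y-TR1 and 1184 were called lower. A background level of 6.35 was taken from 40 genes that other tissues express, at the 90th percentile of their means. Where a line did not exceed it on any of its 3 arrays, only the lower bound of the fold is printed, as the mean of the brighter line over that level. The fitted log2 difference that limma tested is still given for some of these genes, but it depends on signal at background and is not a measured size. Levels of different genes come from different probes and are not set against each other.

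The extracellular matrix is a network of secreted proteins to which cells bind. Fibronectin and the fibrillins form fibrils on which elastin and other proteins are laid down, small leucine-rich proteoglycans coat collagen fibrils and hold growth factors, and glypicans and syndecans carry heparan sulfate chains on the cell surface, where they bind growth factors and their receptors. Lysyl hydroxylases act on collagen inside the cell and lysyl oxidases on collagen and elastin outside it, and together they produce the covalent crosslinks that stiffen the network. Neuroblastoma cells in culture can take a noradrenergic neuroblast state or a mesenchymal state, and matrix genes are among the markers of the latter.

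**Figure D1:**
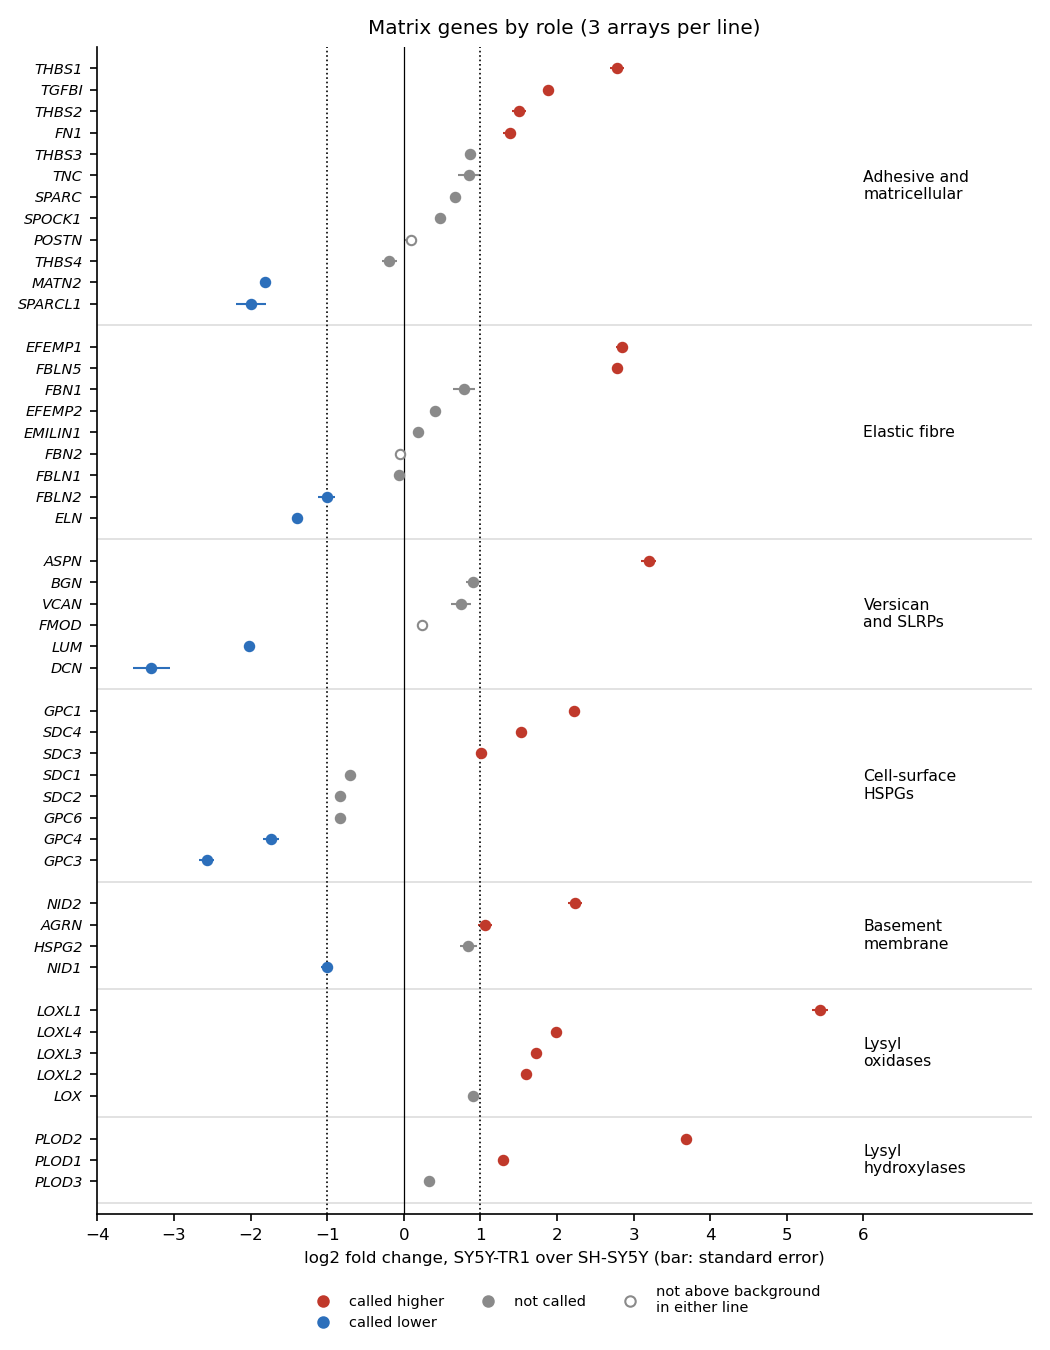
Log2 fold change of the 47 matrix genes (x axis, SY5Y-TR1 over SH-SY5Y, 3 arrays per line) in 7 role groups, with bars for the standard error and dotted lines at the 2-fold limit. Red points (18) were called higher, blue points (9) lower, and open circles (3 genes) were not above background in either line. All 8 points of the lysyl oxidases and lysyl hydroxylases lie above 0, whereas every other group holds points on both sides.

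Over the 47 genes the median log2 fold change was 0.78, beside 0.04 over all genes. With no limit on the fold, 31 were higher (beside 28.5% of all genes) and 12 lower (beside 24.4%) at an adjusted p under 0.05, which is 91.5% of the 47 beside 52.9% of all genes. The arrays of the 2 lines did not overlap for 44 of the 47 genes (93.6%), beside 59.8% of all genes. Of the 44 genes above background in at least 1 line, 40.9% were called higher and 20.5% lower, whereas among the 11672 genes of the array above background the shares were 8.47% and 9.24%. Since RNA of whole cultures was measured, fewer cells of a type and less RNA per cell cannot be told apart.

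Among the 12 adhesive and matricellular glycoproteins, 4 were higher, 2 were lower and 6 were not called, with a median log2 fold change of 0.76. Thrombospondin-1 (THBS1), a secreted protein that can activate latent TGF-beta, read 9.27, 9.44 and 9.38 on the SH-SY5Y arrays and 12.01, 12.31 and 12.11 on the SY5Y-TR1 arrays. No array of one line reached the range of the other. The increase was 6.88-fold (log2 2.78, SE 0.09, limma adjusted p = 3.46e-07), and 5 of 7 THBS1 probe sets were called higher. Of these 5, 1 was not above background in either line, like the 2 that were not called.

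Transforming growth factor-beta-induced protein (TGFBI), which links integrins to collagen, read 9.28, 9.11 and 9.25 in SH-SY5Y and 11.14, 11.05 and 11.11 in SY5Y-TR1. The lines were well separated, and the signal was 3.69-fold higher in SY5Y-TR1 (limma adjusted p = 3.28e-07). Thrombospondin-2 (THBS2), a relative of THBS1 that inhibits angiogenesis, read 7.94, 7.84 and 7.84 in SH-SY5Y and 9.19, 9.55 and 9.42 in SY5Y-TR1. It was 2.85-fold higher, without overlap of the lines (log2 1.51, SE 0.09, limma adjusted p = 9.46e-06). Fibronectin (FN1), the adhesive protein to which many integrins bind, read 12.33, 12.52 and 12.34 in SH-SY5Y and 13.64, 13.87 and 13.83 in SY5Y-TR1. Its arrays did not overlap either, and the increase was 2.61-fold (log2 1.38, SE 0.08, limma adjusted p = 8.02e-06), with 7 of 7 probe sets called higher. FN1 was among the genes that the study itself displayed from these arrays, so its direction is not independent evidence.

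The 2 members of this group that fell were matrilin-2 and SPARC-like protein 1. Matrilin-2 (MATN2), an adaptor of the pericellular matrix, read 9.25, 9.12 and 9.34 in SH-SY5Y and 7.39, 7.48 and 7.43 in SY5Y-TR1. It was 3.50-fold lower with no overlap (log2 -1.81, SE 0.06, limma adjusted p = 6.41e-07), but a second MATN2 probe set, at background in both lines, gave a log2 fold change of 0.04. SPARC-like protein 1 (SPARCL1), which counters the adhesion of cells to matrix, read 6.60, 6.22 and 6.38 in SH-SY5Y, barely above background on only 2 arrays. It read 4.19, 4.86 and 4.18 in SY5Y-TR1. All 3 SY5Y-TR1 arrays lay under the lowest SH-SY5Y array (limma adjusted p = 0.000107), but the decrease can be given only as at least 1.04-fold.

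Members of the group that were not called included SPARC and tenascin-C. SPARC, a collagen-binding counter-adhesive protein, read 12.05, 11.99 and 12.15 in SH-SY5Y and 12.69, 12.77 and 12.74 in SY5Y-TR1, and its 1.59-fold difference stayed under the 2-fold limit although the arrays did not overlap (limma adjusted p = 4.31e-05). Tenascin-C (TNC), a large anti-adhesive glycoprotein, read 10.47, 10.55 and 10.47 in SH-SY5Y and 11.00, 11.64 and 11.40 in SY5Y-TR1, a log2 difference of 0.85 (SE 0.15). The spread among its SY5Y-TR1 arrays was wide, and without SY5Y-TR1 replicate 1 the difference was 1.02, past the 2-fold limit. The log2 difference was 0.87 for thrombospondin-3 (THBS3), 0.47 for the proteoglycan testican-1 (SPOCK1) and -0.19 for thrombospondin-4 (THBS4), whose lines overlapped. Periostin (POSTN) was not above background on any array.

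For THBS1, the gene of this group with the largest increase, the 250 bases before the RefSeq gene start are shown (GRCh38.p14, chr15:39580829-39581078, plus strand). Capitals mark motif letters found on either strand: GC boxes, bound by SP1-type factors, at 223, 172, 125 and 72 bases before the start, and a TEAD motif at 46.
THBS1: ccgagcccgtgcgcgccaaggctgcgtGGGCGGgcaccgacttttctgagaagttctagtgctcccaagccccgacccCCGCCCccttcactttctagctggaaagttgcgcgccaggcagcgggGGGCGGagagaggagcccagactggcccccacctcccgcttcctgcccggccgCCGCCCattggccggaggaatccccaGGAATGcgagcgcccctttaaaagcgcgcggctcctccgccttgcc

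Motif letters were searched in RefSeq promoter windows of 300 bases, which were at hand for 36 of the 47 genes (44 windows). Of these, 32 windows ran from 250 bases before to 50 after the outermost start of the gene, and the other 12 lay further inside it. For 4 genes (SDC3, LOXL3, FBN1 and GPC6) only windows further inside were searched. A gene was counted when any of its windows held the motif. The GC box GGGCGG, read on both strands, was present in 28 of the 36 genes (77.8%), beside 64.6% of the 15390 measured genes with a window. Of all 35116 windows, counted singly and so not a like measure, 45.0% held it. The TEAD motif GGAATG was found in 5 genes (13.9%, beside 15.7% of measured genes) and the E-box CACCTG, a site of zinc-finger repressors of the SNAI and ZEB families, in 6 (16.7%, beside 24.5%). TATAAA was found in 6 (16.7%, beside 11.5%) and the AP-1 motif TGANTCA in 1 (2.78%, beside 8.10%). By call, the GC box was in 12 of 15 higher genes (80.0%), 3 of 4 lower genes (75.0%) and 13 of 17 uncalled genes (76.5%). These matches are letters only and no binding was measured.

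Of the 9 elastic fibre and microfibril genes, 2 were higher, 2 were lower and 5 were not called, and the median log2 fold change was 0.19. Fibulin-5 (FBLN5), which tethers elastin to microfibrils and integrins, was just above background in SH-SY5Y at 6.47, 6.42 and 6.39, and read 9.11, 9.28 and 9.25 in SY5Y-TR1. The lines were far apart, and the increase was 6.90-fold (log2 2.79, SE 0.06, limma adjusted p = 6.11e-08). Fibulin-3 (EFEMP1), a fibulin of basement membranes and elastic tissues, was at background in SH-SY5Y, at 3.75, 3.90 and 3.74, and read 6.64, 6.52 and 6.75 in SY5Y-TR1. All 3 SY5Y-TR1 arrays were above background (limma adjusted p = 1.77e-07), but only by a little, and the increase is at least 1.23-fold.

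Elastin itself (ELN), the core protein of the elastic fibre, went the other way, reading 8.16, 8.13 and 8.03 in SH-SY5Y and 6.66, 6.74 and 6.74 in SY5Y-TR1. It fell 2.63-fold without overlap (log2 -1.39, SE 0.05, limma adjusted p = 8.73e-07), on the brighter of 2 probe sets. The other ELN probe set was at background in both lines and gave -0.07. Fibulin-2 (FBLN2), a fibulin that binds fibronectin and basement membrane proteins, read 7.30, 7.07 and 7.13 in SH-SY5Y and 5.93, 6.25 and 6.30 in SY5Y-TR1. Its SY5Y-TR1 arrays were at background, so that the decrease is at least 1.77-fold (limma adjusted p = 0.000192). Its fitted log2 difference of -1.01 lay at the 2-fold limit and was -0.89 without SY5Y-TR1 replicate 1 and -0.94 without SH-SY5Y replicate 1, which ended the call.

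Fibrillin-1 (FBN1), the main protein of microfibrils, read 11.69, 11.92 and 11.83 in SH-SY5Y and 12.30, 12.86 and 12.63 in SY5Y-TR1. The arrays did not overlap, but the 1.72-fold difference was under the limit (limma adjusted p = 0.00247), and of its 2 dimmer probe sets, at 0.95 and 1.03, the latter was called higher. Fibulin-4 (EFEMP2), needed for elastin crosslinking, read 9.26, 9.22 and 9.26 against 9.63, 9.66 and 9.69, a 1.33-fold difference. The microfibril-associated protein EMILIN1 differed by 0.19 on the log2 scale. Fibulin-1 (FBLN1) differed by -0.06 at its brightest probe set (limma adjusted p = 0.258), whereas another of its 5 probe sets was called lower at -1.45, a gene singled out after its values were seen. Fibrillin-2 (FBN2) was at background throughout.

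Of versican and the 5 small leucine-rich proteoglycans, 1 was higher, 2 were lower and 3 were not called (median log2 fold change 0.49). Decorin (DCN), which binds collagen fibrils and TGF-beta, read 8.57, 8.53 and 8.79 in SH-SY5Y and 5.13, 4.95 and 5.93 in SY5Y-TR1. Every SY5Y-TR1 array was at background and the decrease is at least 4.88-fold (fitted log2 -3.29, SE 0.24, limma adjusted p = 2.46e-05). The SD over the SY5Y-TR1 arrays, 0.52, was the widest among the genes above background, and 4 of 7 DCN probe sets were called lower. Only 3 of the 7 were above background in a line, all of them called. The called probe set at -1.71 and those not called were at background in both lines. Lumican (LUM), a regulator of collagen fibril spacing, read 9.97, 10.01 and 10.06 in SH-SY5Y and 8.06, 7.92 and 8.02 in SY5Y-TR1. It fell 4.04-fold with no overlap and remained above background (log2 -2.01, SE 0.05, limma adjusted p = 1.69e-07), while its other probe set, at background in both lines, gave -0.73.

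Asporin (ASPN), a decorin relative with an aspartate stretch, rose from background, with 3.52, 3.70 and 3.36 in SH-SY5Y and 6.60, 6.79 and 6.78 in SY5Y-TR1. The increase is at least 1.30-fold (limma adjusted p = 2.94e-07), as its SY5Y-TR1 signal was only slightly above background. Versican (VCAN), a large hyaluronan-binding chondroitin sulfate proteoglycan, read 11.90, 11.99 and 11.95 against 12.38, 12.96 and 12.74. Its 1.68-fold difference was not called, and its 5 probe sets lay close together, from 0.75 to 0.92 on the log2 scale. Biglycan (BGN), the closest relative of decorin, read 5.40, 5.66 and 5.69 in SH-SY5Y and 6.46, 6.57 and 6.42 in SY5Y-TR1, and was not called. Its SH-SY5Y arrays were at background, so the difference is at least 1.10-fold (limma adjusted p = 9.45e-05). Fibromodulin (FMOD) was at background in both lines.

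Several of these genes lie in clusters, by their order in RefSeq. LUM and DCN neighbour each other on chromosome 12, next to KERA and EPYC, which were at background in both lines, and BTG1, with a log2 difference of -0.17. ASPN lies between OMD and ECM2 on chromosome 9, and both of these, with OGN beyond OMD, were at background. On chromosome 5, VCAN is followed by HAPLN1, at background, and by EDIL3. GPC3 and GPC4, which are described next, neighbour each other on the X chromosome. Both pairs of called neighbours moved in the same direction, and for the neighbours of ASPN no difference could be measured. The neighbours were looked up after the values were seen.

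Among the 8 cell-surface heparan sulfate proteoglycans, 3 were higher, 2 were lower and 3 were not called. The median log2 fold change was -0.77, below that of the other 6 role groups. Glypican-1 (GPC1), a lipid-anchored coreceptor for fibroblast growth factors, read 8.18, 7.97 and 8.15 in SH-SY5Y and 10.29, 10.36 and 10.30 in SY5Y-TR1. It was 4.66-fold higher with no overlap (log2 2.22, SE 0.06, limma adjusted p = 2.40e-07) at its brighter probe set. The other GPC1 probe set was also called higher, at a fitted log2 difference of 1.06, but was at background in SH-SY5Y. Glypican-3 (GPC3), an oncofetal glypican that restrains hedgehog signaling, read 8.76, 8.61 and 8.57 in SH-SY5Y and 5.92, 6.28 and 6.03 in SY5Y-TR1. All 3 SY5Y-TR1 arrays were at background, and the decrease is at least 4.93-fold (fitted log2 -2.57, SE 0.10, limma adjusted p = 1.03e-06). The other GPC3 probe set was at background in both lines and gave 0.13. Glypican-4 (GPC4) read 6.85, 7.02 and 6.88 in SH-SY5Y and 5.03, 5.13 and 5.39 in SY5Y-TR1, again at background. This decrease is at least 1.49-fold (limma adjusted p = 6.81e-06). The other GPC4 probe set, at background in both lines, gave -0.79 and was not called.

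The syndecans, which span the membrane and bind growth factors through their sugar chains, were divided. Syndecan-4 (SDC4), a focal adhesion component, read 9.45, 9.39 and 9.42 in SH-SY5Y and 10.96, 11.00 and 10.88 in SY5Y-TR1, a 2.88-fold increase without overlap (limma adjusted p = 3.43e-07). Syndecan-3 (SDC3), the neuronal syndecan, read 7.33, 7.29 and 7.39 against 8.35, 8.35 and 8.34 and was 2.01-fold higher (limma adjusted p = 1.66e-06). The SDC3 arrays hardly varied within a line, but the difference lay at the 2-fold limit and was just under it without SH-SY5Y replicate 1 (1.00 on the log2 scale) or 2 (0.98). Syndecan-2 (SDC2), the syndecan of mesenchymal cells, read 11.41, 11.39 and 11.40 against 10.60, 10.51 and 10.60. This 1.78-fold difference was not called (limma adjusted p = 4.02e-06), although 1 of its 3 probe sets was called lower at -1.11. Glypican-6 (GPC6) read 10.72, 10.68 and 10.75 against 9.79, 9.93 and 9.93, also a 1.78-fold difference. For syndecan-1 (SDC1), the syndecan of epithelia, the log2 difference was -0.71. For none of the 8 did an array of one line fall within the range of the other, which also held for 59.8% of all genes.

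The 4 basement membrane linkers and proteoglycans comprised 2 that were higher, 1 that was lower and 1 that was not called (median log2 fold change 0.95). The 2 nidogens, paralogs that join laminin to collagen IV, were called in opposite directions. Nidogen-2 (NID2) read 7.21, 7.03 and 7.17 in SH-SY5Y and 9.19, 9.48 and 9.45 in SY5Y-TR1, a 4.72-fold increase with the lines well apart (log2 2.24, SE 0.09, limma adjusted p = 1.20e-06). Nidogen-1 (NID1) read 10.88, 10.93 and 10.95 in SH-SY5Y and 9.77, 10.02 and 9.95 in SY5Y-TR1, a 2.01-fold decrease (log2 -1.01, SE 0.07, limma adjusted p = 1.83e-05). Its lines did not overlap either, but the decrease was under the limit without SY5Y-TR1 replicate 1 (-0.93) or SH-SY5Y replicate 3 (-0.99).

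Agrin (AGRN), a heparan sulfate proteoglycan that clusters acetylcholine receptors at the synapse of nerve and muscle, read 7.44, 7.43 and 7.14 in SH-SY5Y and 8.29, 8.46 and 8.43 in SY5Y-TR1. It was 2.08-fold higher (log2 1.06, SE 0.09, limma adjusted p = 5.97e-05), at 1 of its 4 probe sets, and was not called without SH-SY5Y replicate 3 (0.96). Perlecan (HSPG2), the main heparan sulfate proteoglycan of basement membranes, read 7.07, 7.20 and 7.09 against 7.87, 8.21 and 7.82. The lines did not overlap, but the 1.80-fold difference was not called.

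Since the nidogens differed in direction, the 250 bases before each gene start are shown together (GRCh38.p14, NID1 at chr1:236065091-236065340 and NID2 at chr14:52069060-52069309, both on the minus strand and written in the direction of the gene). Capitals mark GC box letters on either strand: in NID1 at 151 bases before the start, and in NID2 at 249, 51 and 46, the last 2 of which share a base. A further GC box of NID2 after the start is not shown, and no TEAD, E-box, TATA or AP-1 letters were found in either window.
NID1: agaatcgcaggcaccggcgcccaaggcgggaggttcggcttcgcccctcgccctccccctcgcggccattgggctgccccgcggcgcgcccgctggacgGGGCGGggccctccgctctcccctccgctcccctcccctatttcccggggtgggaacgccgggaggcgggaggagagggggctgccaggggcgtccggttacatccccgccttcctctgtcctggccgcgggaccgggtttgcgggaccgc
NID2: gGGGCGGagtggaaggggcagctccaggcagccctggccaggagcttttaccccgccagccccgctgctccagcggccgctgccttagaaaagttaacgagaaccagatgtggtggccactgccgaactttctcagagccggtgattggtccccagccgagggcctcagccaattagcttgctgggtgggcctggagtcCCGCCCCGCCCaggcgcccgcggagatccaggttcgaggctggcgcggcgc

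The crosslinking enzymes were the groups without a lower member. Of the 5 lysyl oxidases, copper enzymes that oxidize lysines of collagen and elastin, 4 were higher and 1 was not called, and the median log2 fold change was 1.72. LOXL1, the family member tied to elastic fibre upkeep, was at background in SH-SY5Y, at 4.11, 3.72 and 3.80, and read 9.25, 9.31 and 9.36 in SY5Y-TR1. No array of one line came near the range of the other, and the increase is at least 7.78-fold (fitted log2 5.43, SE 0.10, limma adjusted p = 4.54e-08). The 250 bases before the LOXL1 start are shown because this bound exceeded the measured folds of the other genes that rose (GRCh38.p14, chr15:73926212-73926461, plus strand), in lower case throughout, as none of the 5 motifs was found in them.
LOXL1: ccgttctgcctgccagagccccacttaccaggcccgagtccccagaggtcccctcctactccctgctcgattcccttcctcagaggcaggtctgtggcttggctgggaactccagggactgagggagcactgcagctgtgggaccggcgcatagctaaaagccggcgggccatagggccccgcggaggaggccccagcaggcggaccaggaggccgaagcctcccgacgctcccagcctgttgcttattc

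LOXL4 read 6.58, 6.38 and 6.57 in SH-SY5Y, just above background, and 8.43, 8.53 and 8.54 in SY5Y-TR1, a 3.97-fold increase (log2 1.99, SE 0.07, limma adjusted p = 5.05e-07). LOXL3 read 8.31, 8.31 and 8.27 against 9.95, 10.06 and 10.04 and was 3.30-fold higher (log2 1.72, SE 0.05, limma adjusted p = 1.92e-07). LOXL2, which oxidizes collagen IV of basement membranes, read 8.48, 8.37 and 8.51 against 9.96, 10.14 and 10.03 and was 3.02-fold higher (limma adjusted p = 1.14e-06). In none of these enzymes did an array of one line enter the range of the other, as was so for 59.8% of all genes. The call of LOXL2 came from 1 of 4 probe sets, the others being at background in both lines, and that of LOXL4 from 1 of 2. LOX, the founding member of the family, read 8.23, 8.04 and 8.29 against 9.03, 9.12 and 9.13. At 1.87-fold it was not called, although the lines did not overlap (limma adjusted p = 3.64e-05).

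Of the 3 lysyl hydroxylases, 2 were higher and 1 was not called. PLOD2, the hydroxylase of collagen telopeptides, was at background in SH-SY5Y at 3.10, 3.07 and 3.02 and read 6.65, 6.89 and 6.71 in SY5Y-TR1. The fitted log2 difference was 3.68 (SE 0.07, limma adjusted p = 4.58e-08), but as the SY5Y-TR1 signal was near background the increase is at least 1.32-fold. Its other probe set was also called higher, at 2.28, with no line above background. PLOD1, which hydroxylates lysines of the collagen helix, read 8.44, 8.28 and 8.40 against 9.59, 9.74 and 9.68, a 2.45-fold increase without overlap (limma adjusted p = 2.79e-06). PLOD3, which also adds sugars to hydroxylysine, read 11.00, 10.93 and 11.00 against 11.25, 11.36 and 11.32 and was not called at 1.26-fold. Over all 8 lysine-modifying enzymes the median log2 fold change was 1.66, and all 8 were higher at an adjusted p under 0.05 when no fold limit was set, beside 28.5% of all genes.

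**Figure D2:**
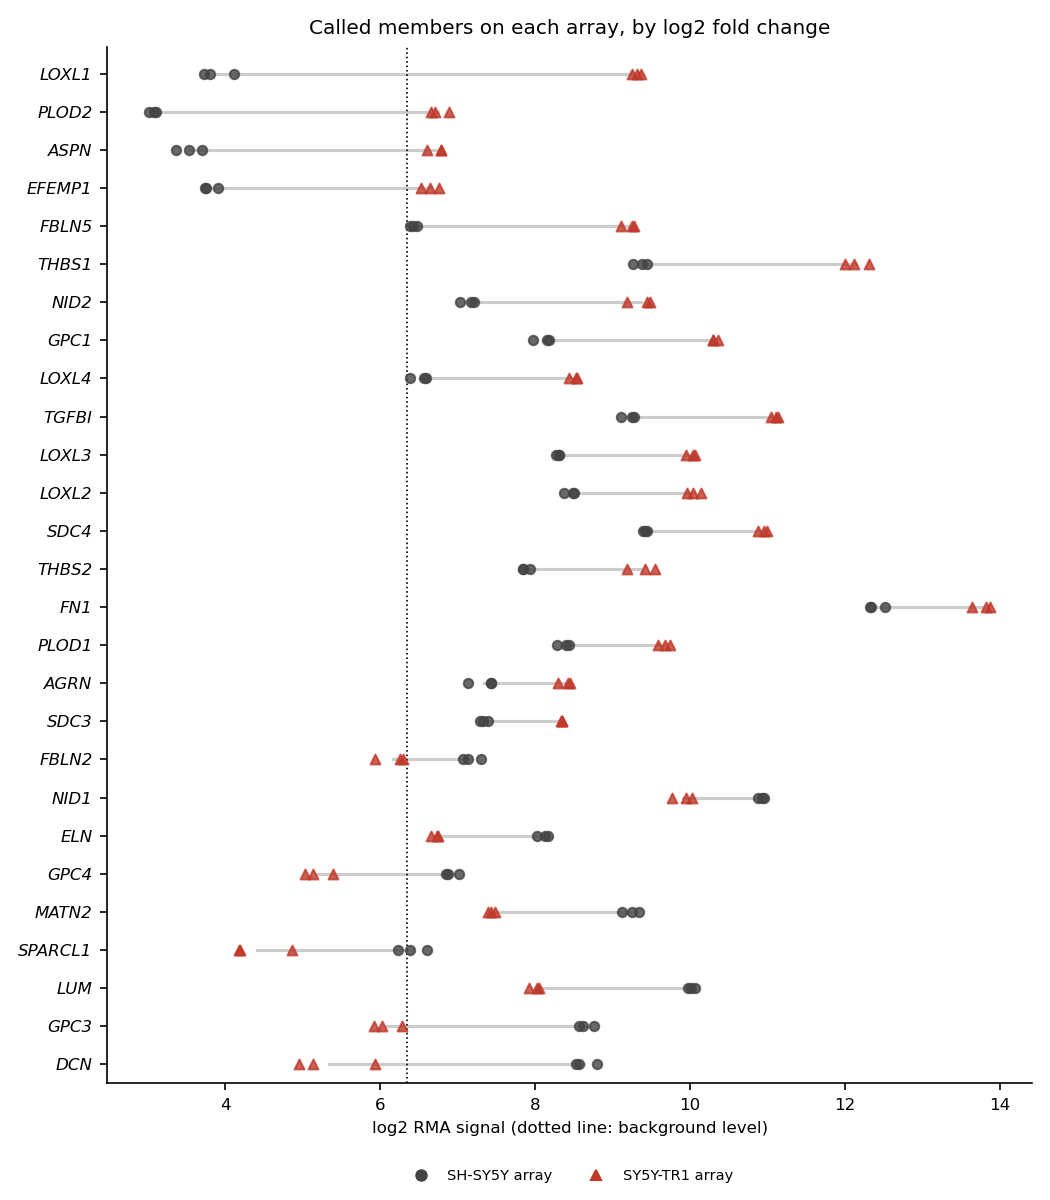
Log2 RMA signal on each array (x axis) of the 27 called genes, ordered by log2 fold change, with circles for the 3 SH-SY5Y arrays and triangles for the 3 SY5Y-TR1 arrays. The dotted line is the background level of 6.35. Circles and triangles do not mix for any of the 27 genes, but these were selected by their calls, so the separation is no further support. LOXL1, PLOD2, ASPN and EFEMP1 start from background in SH-SY5Y.

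By fitted log2 difference, the genes nearest the 2-fold limit were SDC3 (1.00), FBLN2 (-1.01), NID1 (-1.01) and AGRN (1.06) on the called side and LOX (0.90), BGN (0.90), THBS3 (0.87) and TNC (0.85) on the other, of which FBLN2 and BGN had a line at background. Replicates were tight on the whole, with a median SD of 0.08 in each line over the 44 genes above background. SY5Y-TR1 replicate 1 was the lowest array of its line for 31 of these 44 genes (70.5%), beside 34.6% of the 11672 genes of the array above background. Omission of this replicate brought TNC past the limit and NID1 and FBLN2 under it. NID1 also fell under the limit without SH-SY5Y replicate 3, and FBLN2 without SH-SY5Y replicate 1.

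A total of 113 probe sets matched the 47 genes, and 46 of them were called (40.7%, 32 higher and 14 lower), beside 9.81% of all probe sets with a single gene symbol. Of the 113, 37 were at background in both lines. Probe sets of the same gene were never called in opposite directions, for any of the 31 genes with more than 1. AGRN, FBLN1 and SDC2 had probe sets above background on both sides of the 2-fold limit, as had FBN1 and NID1.

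**Figure D3:**
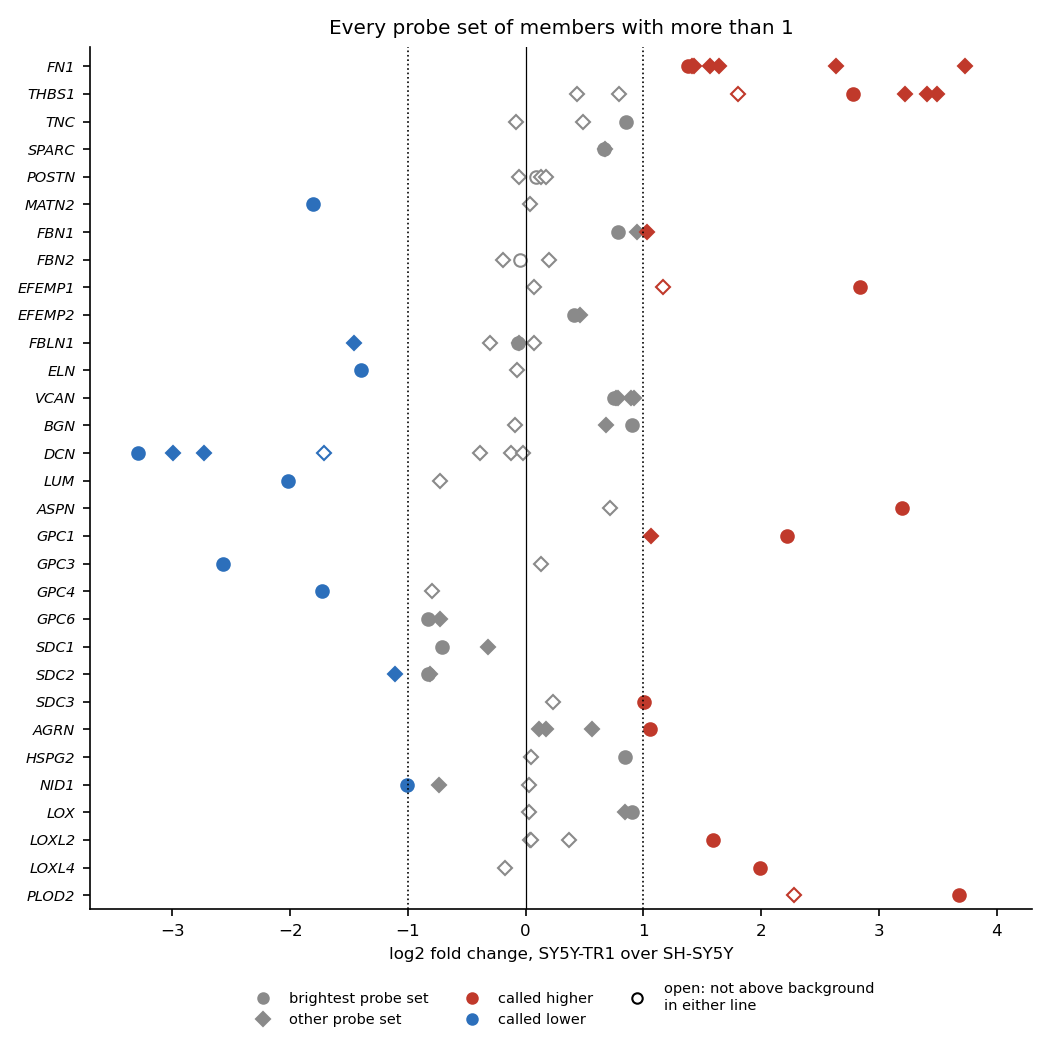
Probe sets of the 31 genes with more than 1, each at its log2 fold change (x axis, positive when higher in SY5Y-TR1), with circles for the brightest probe set, diamonds for the others, open symbols for probe sets not above background in either line, and dotted lines at the 2-fold limit. The 7 FN1 probe sets all lie right of the upper limit, whereas the open symbols of LOXL2 and MATN2 lie near 0 beside a called probe set and those of DCN range from -1.71 to -0.02.

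Other genes of matrix assembly, 138 measured genes in 4 lists, were also chosen by name with earlier results of these data known. They comprised 27 higher (19.6%, beside 5.36% of all genes) and 11 lower genes (7.97%, beside 5.99%), with a median log2 fold change of 0.17. Among 43 other matrix glycoproteins, 7 were higher and 4 lower (median 0.12). EDIL3, an integrin-binding glycoprotein and neighbour of VCAN, rose from background by at least 47.9-fold (fitted log2 6.24, limma adjusted p = 1.33e-07). COMP, the cartilage thrombospondin, rose by at least 3.00-fold, and CTHRC1, a collagen-associated glycoprotein, rose 3.97-fold. Reelin (RELN), a guide of migrating neurons, decreased at least 6.27-fold to background, ABI3BP at least 1.32-fold, and the calcification inhibitor MGP 4.82-fold. Other proteoglycans and link proteins, with 25 measured, held 1 higher and 1 lower gene, neither of them above background, and a median of 0.10.

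Among 25 collagen-modifying enzymes, chaperones and proteinases, 7 were higher and 2 lower (median 0.31). The crosslinking transglutaminase TGM2 rose 10.2-fold, from 7.51 ± 0.16 to 10.86 ± 0.07 (SD, n = 3), and the collagen prolyl hydroxylases P4HA2 and P3H1 rose 3.25-fold and 2.38-fold. ADAMTS3, a procollagen N-proteinase, fell 3.95-fold, and PCOLCE, an enhancer of the procollagen C-proteinase, fell 2.16-fold. Of 45 genes of glycosaminoglycan synthesis and modification, which build and sulfate the chains carried by glypicans, syndecans and versican, 12 were higher and 4 lower (median 0.35). The heparan sulfate 3-O-sulfotransferase HS3ST3B1 rose at least 13.3-fold, the extracellular 6-O-sulfatase SULF2 rose 4.65-fold and the chondroitin sulfotransferase CHST7 rose 4.34-fold. In SH-SY5Y, SULF2 exceeded background on 2 arrays and CHST7 on 1, so both folds start from signal near background. The 6-O-sulfotransferases HS6ST2 and HS6ST3 decreased at least 16.5-fold and 5.56-fold, and the chondroitin sulfotransferase CHST15 at least 4.03-fold, all to background. HS6ST1, named after its values were seen as the remaining lower gene, had a log2 fold change of -1.44, so all 3 HS6ST genes were lower.

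**Figure D4:**
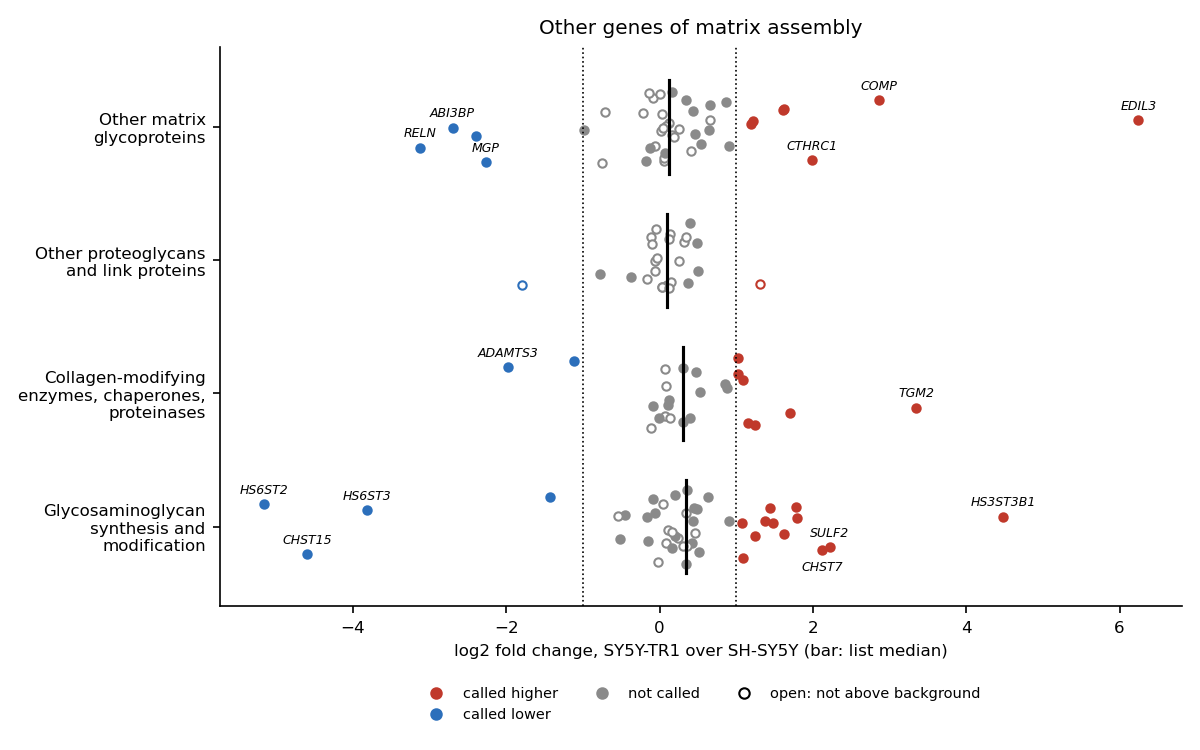
Log2 fold change (x axis, SY5Y-TR1 over SH-SY5Y) of 138 other matrix genes in 4 lists, with a vertical bar at each list's median, dotted lines at the 2-fold limit and open symbols for genes not above background in either line. Names mark called changes, such as EDIL3 at a fitted 6.24 and HS6ST2 at -5.16, each with 1 line at background, and the medians lie between 0.10 and 0.35.

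Markers of cell types that the lines could resemble or contain were read beside these results. Of 15 measured noradrenergic neuroblast markers, 10 were lower and none was higher, beside 5.99% and 5.36% of all genes. Their summed linear signal ranged from 32677 to 33734 in SH-SY5Y and from 5217 to 5457 in SY5Y-TR1. Much of the SH-SY5Y sum came from bright genes such as GATA3 and STMN2. ISL1 and HAND2, above background in both lines, were not called, at log2 differences of -0.69 and -0.62. Tyrosine hydroxylase (TH), a defining marker, was at background in both lines. Of 13 stromal fibroblast markers, 4 were higher (PDGFRB, THY1, FAP and COL1A1) and 2 lower (PDGFRA and RGS5), and their summed signal was 35639 to 35851 in SH-SY5Y and 40621 to 43058 in SY5Y-TR1, with TCF21 and MYH11 at background. A few bright probe sets carry this sum, and they moved both ways, with log2 differences of -1.31 for RGS5 and 3.73 for COL1A1. The part of either list in the matrix results was not tested. Schwann cell markers (6 measured) and blood cell markers (8 measured, with PTPRC) were all at background in both lines, with summed signals of 189 to 198 and 286 to 298 in SH-SY5Y and of 197 to 218 and 303 to 320 in SY5Y-TR1. Of 10 endothelial markers, 9 were at background, among them PECAM1, CDH5, KDR and VWF, and ROBO4 was higher, with summed signals of 267 to 303 and 501 to 512.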

How the data were processed

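The 6 arrays carry values on the log2 scale that the authors deposited after RMA in Affymetrix Expression Console, per the labels. The version was not given in the sources used here. RMA subtracts background, quantile-normalizes the arrays together and summarizes probes, so these steps could not be varied, and it compresses differences of dim probe sets. Array medians lay between 5.56 and 5.59. Precision is limited by having 3 arrays a line.

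Of 54675 probe sets, 62 controls were left out, and 41091 had 1 symbol through the platform annotation and RefSeq (GRCh38.p14). Each gene was read at its probe set with the highest mean over all arrays. The model was fitted with lmFit and eBayes of limma 3.58.1 in R 4.3.3, without a block. The call limits follow a legend of the study. In 5 simulations of 19752 genes, at least 99% of changes of 1.5 on the log2 scale and 100% of changes of 3 were recovered, and 0 unchanged genes were called. These changes lay past the 2-fold limit and values were drawn independently, so calls near the limit or at background were not tested.

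Named genes were all called members, the 2 brightest uncalled members of each role group, and the 3 largest called changes each way of the other lists where above background. The remaining members are given for completeness. The members and lists were chosen with earlier results of these data known. Same-numbered arrays did not deviate together (correlations -0.017, -0.028 and 0.005), so the numbers were not taken as pairs. Alternatives were other choices or means of probe sets, other centring, normalization, variance and call limits, a floor at background and the omission of each array.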

Additional observations from a re-analysis of the deposited data

How the results depend on the processing

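Of the 27 called genes, 12 kept their call under all 17 alternative settings: FN1, THBS1, THBS2, TGFBI, FBLN5, SDC4, NID2, LOXL1, LOXL3 and PLOD1, which were higher, and DCN and GPC3, which were lower. Among these, THBS2, TGFBI, FBLN5, SDC4, NID2, LOXL1, LOXL3 and PLOD1 have a single probe set, not of shared sequence. For them, leaving out or averaging probe sets could not alter the fold. Dropping the fold limit could not remove the call of any gene. Keeping every call thus depended in part on having a single probe set. GPC1 kept its call under the 16 settings that gave it a value, as it has only probe sets of shared sequence. The mean of all probe sets left 14 higher and 6 lower (lost were AGRN, ELN, LOXL2, LOXL4, MATN2, NID1 and SDC3). Without probe sets of shared sequence, which left 37 of the 47 genes, 14 were higher and 7 lower. AGRN (0.11) and LUM (-0.73) lost their calls there, FBLN1 (-1.45) and FBN1 (1.03) gained one, and MATN2 changed sign to 0.0393. DCN kept its call there, but at a probe set not above background in either line (-1.71), so no measured difference underlies that call. When values were raised to the background level, 15 were higher and 6 lower, since ASPN, EFEMP1, FBLN2, GPC4, PLOD2 and SPARCL1 were no longer called. Centring on housekeeping genes lost only SDC3 (0.95), and a second quantile normalization lost only FBLN2 and NID1. With no fold limit, 31 genes were higher and 12 lower, and of the other matrix genes 68 were higher and 21 lower. Leaving out each array in turn gave 17 to 19 higher and 7 to 9 lower. With the replicate block, 18 were higher and 9 lower, and no call changed. The methods' t-test, a variance trend with robust fitting and an adjusted p limit of 0.01 also gave 18 and 9.

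The main limits are those of the arrays. Genes at background in a line have no measured fold, only a bound, and 3 genes (POSTN, FBN2 and FMOD) have no measured difference at all. The 4 calls within 0.1 of the 2-fold limit on the log2 scale turned on single arrays. A probe set reports a stretch of the transcript, not its isoforms, and mRNA was measured, not secreted or crosslinked protein.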
